A study of Canis lupus familiaris with 15 samples.

Results

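The genes described here are 5 mediators of acute inflammation, namely the cytokine genes TNF, IL1B and IL6 and the chemokine genes CXCL8 and PPBP, measured in dog skin. They were chosen by name, as the probes whose RefSeq accession, read without its version, belongs to one of these dog genes, and each matched a single probe (NM_001003244.4, NM_001037971.1, NM_001003301.1, NM_001003200.1 and NM_001171772.2 in that order). They are 5 of the 160 probes of a custom NanoString panel, an assay in which a fluorescent barcode marks each captured RNA molecule and is counted directly, with no amplification step. Archival skin biopsies of 15 dogs were measured, among them 7 dogs with discoid lupus erythematosus (DLE), a chronic autoimmune skin disease, and 5 healthy dogs whose skin came from leg margin excisions and whose data were re-used from an earlier series. A single dog each had chronic cutaneous lupus with suspected systemic lupus (CCLE), a disease labelled MLE (mucocutaneous lupus) and pyoderma, a bacterial skin infection. The DLE dogs were 1 to 13 years old (median 6) and of 7 different breeds or crosses, the CCLE dog was 7, the MLE dog 6 and the pyoderma dog 9, and no age was given for the healthy dogs. No label names a treatment, the body site of the lesions is not stated, and the record of the pyoderma dog had carried the label DICLE before it was corrected.

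TNF and the protein of IL1B are released early in inflammation by macrophages and other cells, and both switch on the NF-kappaB pathway in keratinocytes, fibroblasts and endothelium. The cytokine encoded by IL6 is among the products of that response and acts through STAT3 on epithelium and lymphocytes. CXCL8 is induced in keratinocytes and macrophages by the same signals and recruits neutrophils through the receptors CXCR1 and CXCR2. PPBP is stored in platelets as a precursor that is cut to a neutrophil-attracting chemokine acting on CXCR2, and in human blood it is also made by monocytes. In skin these genes are known from infection, wounding and neutrophilic inflammation.

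The panel counts of a dog summed to between 495839 and 587169 in DLE and between 209889 and 675018 in healthy skin. The background limit, the mean plus 2 SD of the 8 lowest ERCC control rows of a dog, lay between 13.6 and 30.0 counts. It was passed by 103 to 148 of the 160 probes in healthy dogs and by 126 to 151 in DLE dogs, so that most healthy dogs had a weaker panel signal. The control rows with high counts in the 6 healthy and CCLE dogs were not those with high counts in the remaining 9 dogs. This division of the control rows coincides with the comparison of DLE and healthy skin, and in that comparison alone the 2 cannot be told apart. The changes of the 5 genes and the ratios of IL6 are therefore also given with the control row set as a block, a fit of the 9 lupus dogs against the 6 other dogs in which only the CCLE and pyoderma dogs separate disease from set. Normalised counts are counts divided by a library size scaled by TMM over the 160 probes and set to the mean of those sizes over all 15 dogs.

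Whether discoid lupus lesions differ in these mediators was addressed by comparing DLE with healthy skin. TNF and PPBP rose in DLE skin, each more than 3-fold. For both genes every DLE dog lay above every healthy dog, as was the case for 25.3% of 158 probes. IL1B, IL6 and CXCL8 were not called, and each varied widely from dog to dog. All 5 genes passed the filter on low counts, and 2 of the 5 were called higher and 0 lower, against 37.7% of the 154 probes tested called higher and 24% called lower (edgeR quasi-likelihood test, Benjamini-Hochberg adjusted p under 0.05). The share of these genes that rose is thus near that of the panel. Their median log2 change was 0.85, against 0.42 over all probes tested.

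TNF stood at 61.3, 45.0, 64.0, 42.7 and 93.9 normalised counts in healthy dogs 1 to 5. In the 7 DLE dogs the lowest value was 152.7, the median 201.8 and the highest 291.4. The groups did not overlap, and the values of the DLE dogs lay close together: the SD on the log2 scale was 0.36, which ranked 135 of 158 probes from the largest, against a median of 0.66 over the panel. The means were 215 ± 52.7 in DLE (SD, n = 7) and 61.4 ± 20.5 in healthy skin (n = 5), a 3.50-fold rise (log2 1.81 ± 0.29 SE, 95% interval 1.18 to 2.43, edgeR adjusted p = 0.000176). Such a complete separation of the 7 DLE from the 5 healthy dogs was seen for 25.3% of 158 probes. In bulk tissue, more cells that express a gene and more RNA per cell cannot be told apart.

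TNF also lay above the healthy range in each of the 3 other lesions. The CCLE dog had the highest value of all 15 dogs with 346 normalised counts, 1.19 times the highest DLE value, the MLE dog stood at 204 within the DLE range, and the pyoderma dog stood at 138, below every DLE dog. All 10 lesional dogs were thus above all 5 healthy dogs, as was the case for 20.9% of 158 probes. With the control row set as a block the rise was 1.53 ± 0.36 on the log2 scale (edgeR adjusted p = 0.00498), a fit in which 22.1% of 154 probes were called higher in lupus. Within the set of the healthy dogs the CCLE dog exceeded the highest healthy dog 3.69-fold, and within the other set the pyoderma dog lay under all 8 lupus dogs. In healthy skin the raw TNF counts were low, 34 to 105, or 1.27 to 4.60 times the background limit, against 4.07 to 26.3 times in DLE skin.

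IL1B, which encodes a cytokine that is activated by cleavage in the inflammasome, stood at 37.7, 45.0, 109.7, 32.7 and 130.6 normalised counts in healthy dogs 1 to 5. In DLE dogs it ran from 18.0 in dog 6 over a median of 95.5 to 282.5 in dog 4. The groups overlapped, with 2 DLE dogs above and 1 below the healthy range. The means were 130 ± 98.6 in DLE (SD, n = 7) and 71.1 ± 45.6 in healthy skin (n = 5), and the difference was log2 0.85 ± 0.60 (SE, 95% interval -0.43 to 2.14, edgeR adjusted p = 0.225). The call depended on the scaling, since with the reference genes HPRT1 and RPL13A as the scale IL1B was called higher (log2 1.63, edgeR adjusted p = 0.0319). Both reference genes had lower mean normalised counts in DLE than in healthy skin (HPRT1 614 against 811, RPL13A 15334 against 31090). On that scale the median of all probes was 1.09, and IL1B lay 0.54 above it. With the control row set as a block the sign of IL1B turned (-0.60, edgeR adjusted p = 0.792). The highest DLE value was 15.7 times the lowest, and DLE dog 6 and healthy dog 1 lay under their background limits.

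IL6 was lower in most lesions than in healthy skin, but the difference was not called. The healthy dogs 1 to 5 stood at 210.7, 575.3, 596.4, 251.3 and 2039 normalised counts. In DLE dogs the lowest value was 32.0 and the median 114.8, and the highest was 842.2. The DLE dogs were split, with 5 of 7 below the lowest healthy dog and dogs 4 and 5 (707.0 and 842.2) inside the healthy range. The raw counts of DLE dogs 1, 3 and 6 were 37, 25 and 32, only 1.59, 1.31 and 1.46 times their background limits. The means were 271 ± 348 in DLE (SD, n = 7) and 734 ± 751 in healthy skin (n = 5), a log2 difference of -1.44 ± 0.88 (SE, 95% interval -3.34 to 0.46, edgeR adjusted p = 0.170). IL6 had one of the largest spreads on the panel in both groups, with SDs of 1.95 and 1.30 on the log2 scale, ranking 7 and 6 of 158 probes.

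The other lesions resembled the lower DLE dogs in their IL6 level. The CCLE dog had the lowest value of all 15 dogs (30.3 normalised counts, raw count 32, or 1.79 times its background limit). The MLE and pyoderma dogs stood at 113.4 and 117.2. Thus 8 of 10 lesional dogs lay below every healthy dog. The fit with quantile scaling and limma called IL6 lower in DLE (log2 -2.50, limma adjusted p = 0.0240). Without healthy dog 5, which had the highest IL6 value, the edgeR difference was -0.73. It was -2.06 without DLE dog 5, and neither was called. With the control row set as a block it was -1.67 ± 2.70 (edgeR adjusted p = 0.718), an error too wide to show a difference of that size.

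CXCL8 did not differ detectably between DLE and healthy skin. It stood at 217, 5069, 3963, 437 and 5204 normalised counts in healthy dogs 1 to 5, which left 3 dogs at 3963 or more and 2 at 437 or less. In DLE dogs it ran from 277 in dog 6 over a median of 2544 to 5676 in dog 4. The groups overlapped almost fully, with 1 DLE dog above the healthy range and 0 below. The means were 3007 ± 1916 (SD, n = 7) and 2978 ± 2469 (n = 5), a log2 difference of 0.01 ± 0.77 (SE, 95% interval -1.64 to 1.67, edgeR adjusted p = 0.986). The interval holds changes of about 3-fold in either direction, so equality was not shown. The sign turned with the scaling, from 0.75 with reference genes to -0.54 with the panel median, and was not called under any of the 6 scalings. CXCL8 counts were 4.96 to 512 times the background limit in these 12 dogs, so background does not limit this comparison, whereas the spread does: in healthy dogs its SD of 2.19 on the log2 scale ranked 2 of 158 probes.

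PPBP stood at 48.8, 39.7, 53.0, 50.3 and 49.0 normalised counts in healthy dogs 1 to 5. In DLE dogs the lowest value was 65.5 in dog 1, the median 184.7 and the highest 263.8 in dog 2. The groups did not overlap. The means were 175 ± 68.7 in DLE (SD, n = 7) and 48.1 ± 5.02 in healthy skin (n = 5), a 3.61-fold rise (log2 1.85 ± 0.34 SE, 95% interval 1.12 to 2.58, edgeR adjusted p = 0.000464). The healthy values were even, but at 30 to 87 raw counts they were only 1.11 to 3.81 times the background limit. Raising all counts under the limit to it left the change at 1.85, since all 5 healthy counts were above it.

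In none of the 3 other lesions did PPBP exceed the highest healthy dog by more than 1.03-fold. The CCLE dog stood at 53.0 and the pyoderma dog at 54.6 normalised counts, level with the highest healthy dog, and below all 7 DLE dogs. The MLE dog stood at 14.8, the lowest of 15, from a raw count of 20 that lay under its background limit of 25.0. With the control row set as a block the rise of PPBP was 0.84 ± 0.77 on the log2 scale and its call ended (edgeR adjusted p = 0.472). In that fit the CCLE dog is the only lupus dog in the set of the healthy dogs, and the pyoderma dog the only other lesion in the set of the DLE dogs. Whether the rise goes with DLE or with the control row set cannot be told apart. No platelet marker of the list examined (PF4, ITGA2B, GP9, GP1BA, SELP) matched a named probe, so a part of platelets in the PPBP signal was not tested.

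**Figure D1:**
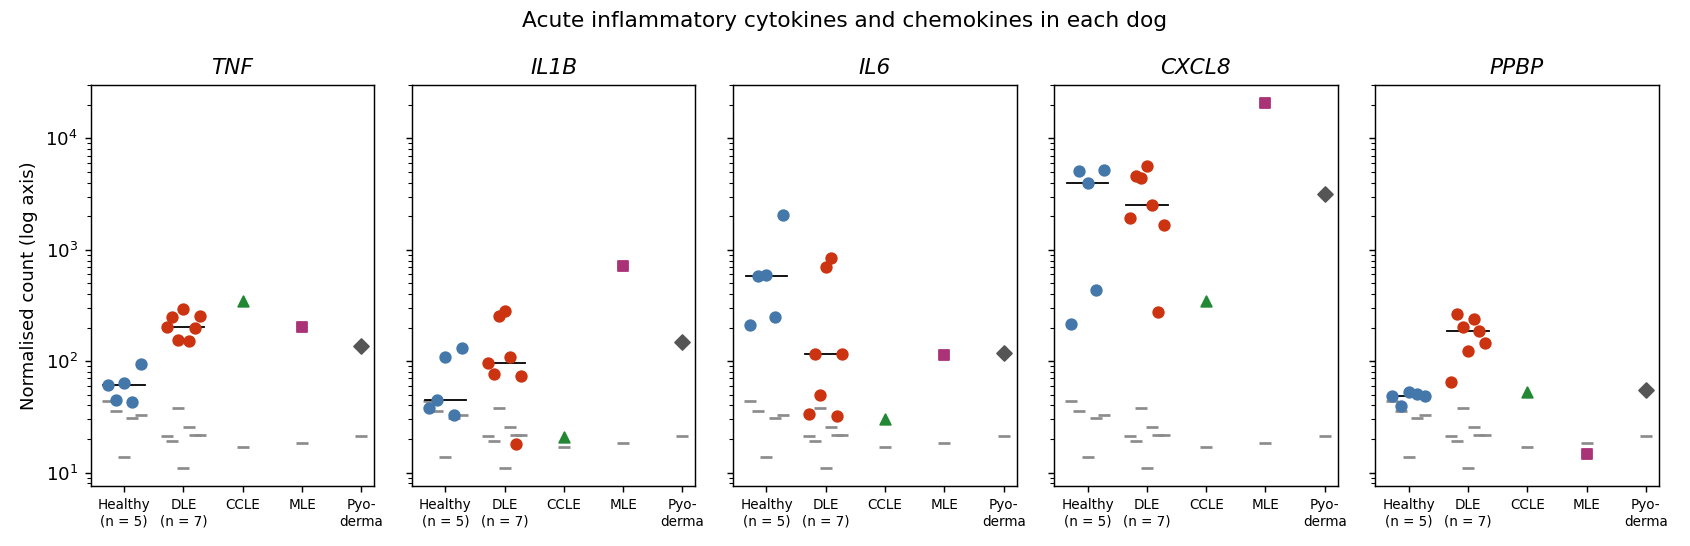
Normalised counts (log axis) of the 5 genes in each of 15 dogs, by group; points are dogs, black lines are group medians of 5 healthy and 7 DLE dogs, and grey ticks are each dog's background limit on the same scale. All 7 DLE dogs lie above all 5 healthy dogs for TNF and PPBP, 5 of 7 DLE dogs lie below all healthy dogs for IL6, and the MLE dog is highest for IL1B and CXCL8.

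Set among all probes, the rises of PPBP and TNF were the 37th and 39th largest of 154, and IL1B, CXCL8 and IL6 followed at ranks 65, 87 and 135. The median of all probes moved with the scaling. It was 1.09 for reference genes, 0.74 for spike-in rows, 0.42 for TMM, 0.11 for DESeq2, -0.14 for quantiles and -0.24 where each dog was scaled by its own panel median. Measured from the median under TMM, TNF changed by 1.38, PPBP by 1.43, IL1B by 0.43, CXCL8 by -0.41 and IL6 by -1.86 on the log2 scale. Relative to the median of each of the 6 scalings TNF lay between 1.24 and 1.49 above it, PPBP between 1.07 and 1.48 above it, and IL6 between -2.36 and -1.51. CXCL8 lay between -0.43 and 0.50, with the positive value under quantile scaling. The calls of TNF and PPBP were made under all 6 scalings. None of the 6 takes the control row set into account. Spike-in scaling uses the 6 highest control rows of each dog, which were not the same rows in both sets.

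**Figure D2:**
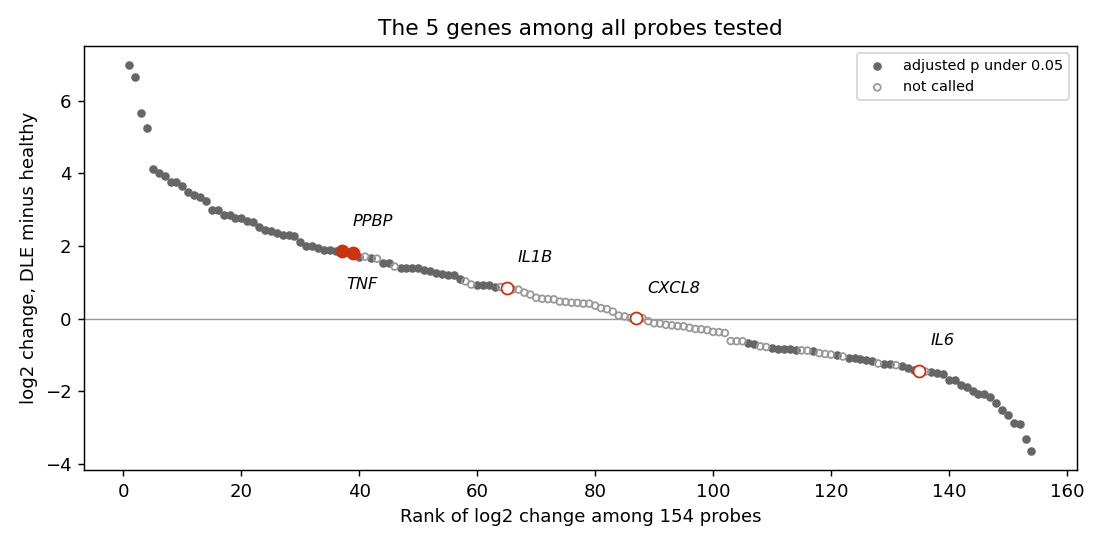
The log2 change from healthy to DLE skin of 154 probes in order of size; filled points have an edgeR adjusted p under 0.05, and the 5 genes are marked with red outlines. TNF (1.81) and PPBP (1.85) are called, while IL1B (0.85), CXCL8 (0.01) and IL6 (-1.44) are not.

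**Figure D3:**
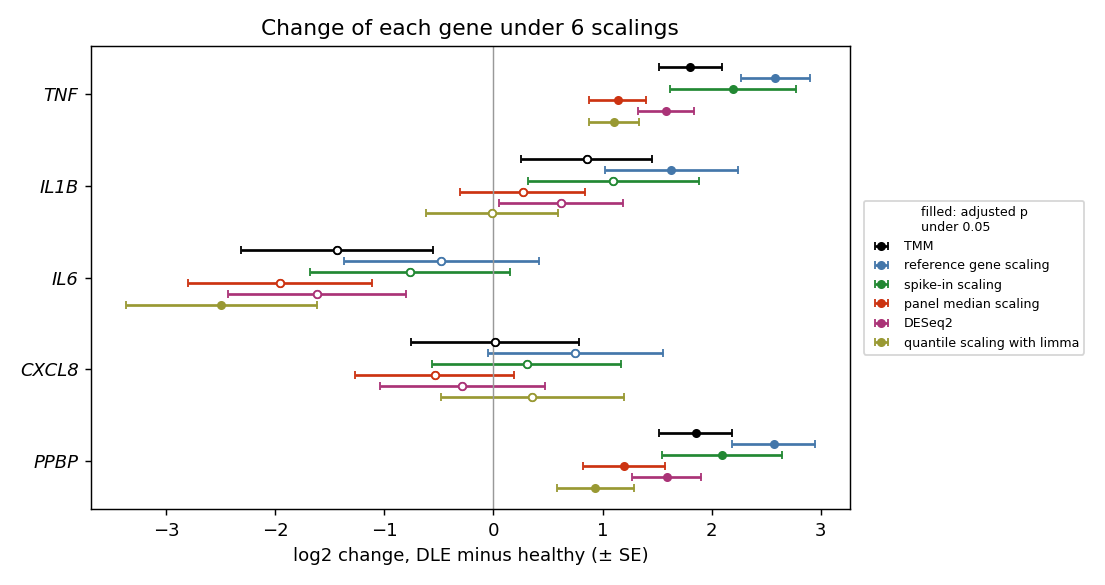
The log2 change of each gene, DLE minus healthy, with its SE (horizontal bars) under 6 scalings; filled points have an adjusted p under 0.05. TNF and PPBP are filled and above 0 throughout, IL6 lies below 0 throughout and is filled under quantile scaling only, and CXCL8 lies on both sides of 0.

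Whether the genes changed unequally was tested by their ratio within each dog, which does not depend on how dogs are scaled to one another. For each of the 10 pairs the log2 ratio of (count + 1) was compared between 7 DLE and 5 healthy dogs by an exact two-sided permutation test over all 792 splits, whose smallest p is 0.00126. In 3 pairs the ratio differed after adjustment over the 10 pairs, and each of these 3 pairs included IL6 (4 pairs had an unadjusted p under 0.05). How often other probe pairs on the panel differ in this way was not examined. Of the 154 probes tested, 37.7% were called higher in DLE and 24% lower.

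IL6 over TNF was at log2 1.75, 3.64, 3.21, 2.52 and 4.42 in healthy dogs 1 to 5. In DLE dogs it ran from -2.61 over a median of -1.13 to 2.46, with 6 of 7 dogs below every healthy dog. The mean was -0.76 ± 1.92 (SD, n = 7) against 3.11 ± 1.02 (n = 5), a difference of -3.86 on the log2 scale, or 14.6-fold (exact permutation p = 0.00379, adjusted p = 0.0253). The CCLE, MLE and pyoderma dogs stood at -3.48, -0.84 and -0.23, all below the healthy range.

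IL6 over PPBP differed by -3.77 (exact permutation p = 0.00505, adjusted p = 0.0253), again with 6 of 7 DLE dogs below every healthy dog. For this ratio the CCLE and pyoderma dogs (-0.79 and 1.09) lay below the healthy range of 2.08 to 5.34, and the MLE dog (2.87) lay inside it. IL6 over IL1B differed by -2.72 (exact permutation p = 0.0101, adjusted p = 0.0337), from 3.07 ± 0.70 in healthy dogs (SD, n = 5) to 0.35 ± 1.76 in DLE dogs (n = 7), and 6 of 7 DLE dogs lay below the healthy range, as did the CCLE, MLE and pyoderma dogs (0.52, -2.64 and -0.33). IL6 over CXCL8 differed by -2.54 and missed the threshold (exact permutation p = 0.0240, adjusted p = 0.0600). The DLE dogs with the highest IL6 levels, dogs 4 and 5, also had the highest ratios to TNF.

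These calls rest on few dogs, and IL6 was close to background in DLE dogs 1, 3 and 6. The differences kept their sign without any single dog, from -4.40 to -3.54 for IL6 over TNF, from -3.15 to -2.27 for IL6 over IL1B and from -4.26 to -3.29 for IL6 over PPBP. The adjusted p stayed under 0.05 for these 3 pairs only without DLE dog 4 or DLE dog 5, and without any other single dog it lay between 0.0505 and 0.0985. The count of called pairs was then 0. It was also 0 with the control row set as a block, a comparison chosen after seeing the data in which the 9 lupus dogs were set against the 6 others within sets (exact permutation over 54 exchanges, smallest p 0.0185). The difference was then -3.46 for IL6 over TNF (exact permutation p = 0.0556, adjusted p = 0.324), -2.57 for IL6 over PPBP (exact permutation p = 0.111, adjusted p = 0.324) and -1.07 for IL6 over IL1B (exact permutation p = 0.407, adjusted p = 0.509).

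The log2 ratio of TNF to PPBP differed by 0.09 between the groups (exact permutation p = 0.830, adjusted p = 0.830), which does not show that both genes changed equally. In single dogs that ratio varied: it stood at 2.69 in the CCLE dog and 3.72 in the MLE dog, against -0.63 to 1.61 in DLE dogs and -0.23 to 0.92 in healthy dogs. The log2 ratio of IL1B to CXCL8 differed by 0.18 between the groups (exact permutation p = 0.799, adjusted p = 0.830), and by -0.35 to 0.73 with 1 dog left out, so likeness was not shown. The SD of that ratio on the log2 scale was 0.64 in DLE dogs and 1.65 in healthy dogs.

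**Figure D4:**
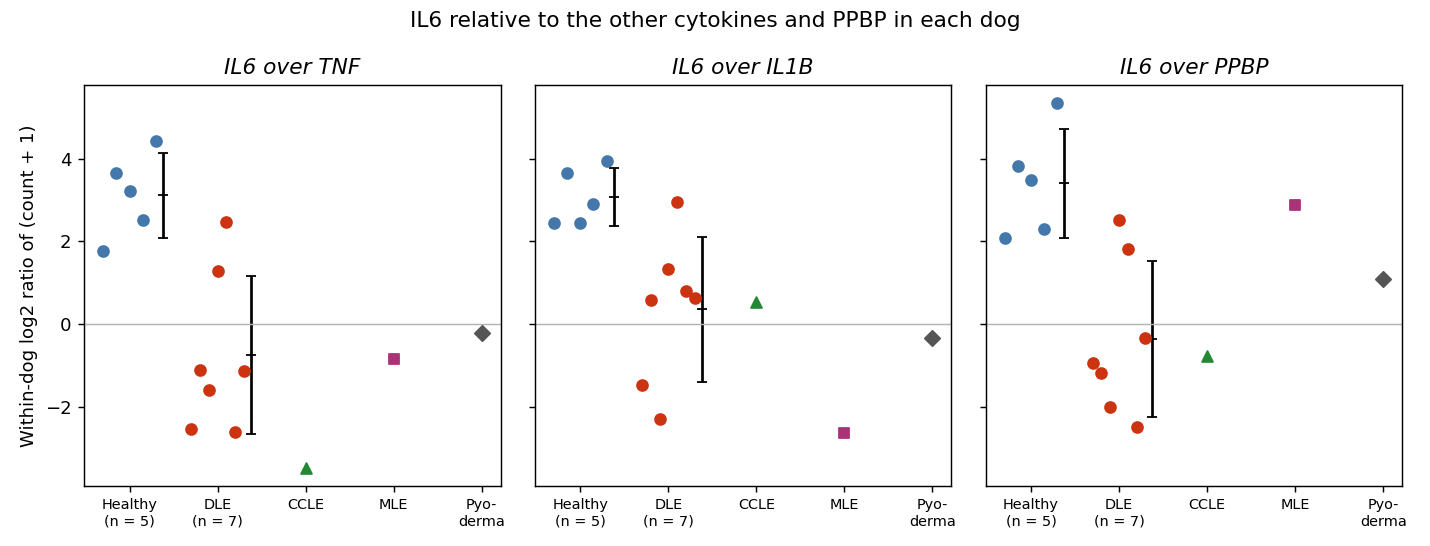
The log2 ratio of IL6 to TNF, IL1B and PPBP within each dog, from counts plus 1; points are dogs, and bars are the mean and SD of the 5 healthy and the 7 DLE dogs. In each panel 6 of 7 DLE dogs lie below every healthy dog, and the CCLE dog lies below the healthy range.

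Among the 7 DLE dogs r was above 0 in 8 of the 10 pairs. After adjustment 0 pairs passed (Pearson's r of log2 values, exact permutation over 5040 orders), and 1 had an unadjusted p under 0.05. That pair was IL1B and CXCL8 (r = 0.90, exact permutation p = 0.0115, adjusted p = 0.115; Spearman's rho = 0.79, exact permutation p = 0.0480, adjusted p = 0.480). DLE dog 6 was lowest and DLE dog 4 highest for both genes. Without the 2 dogs farthest from the IL1B median r was 0.50, and without DLE dog 6 alone it was 0.69. Without DLE dog 2, whose CXCL8 level was high for its IL1B level, r was 0.99 (n = 6, exact permutation p = 0.00139, adjusted p = 0.0139 over 10 pairs). This was the only dog whose removal gave a call. When the 2 dogs then farthest were left out too, r was 0.98 without DLE dog 2. In the same step it was -0.13 without DLE dog 3, 4 or 6, and 0.33 to 0.50 without DLE dog 1, 5 or 7. The size of the relation thus depends on single dogs. Values of a dog share its library, its scaling and the makeup of its biopsy.

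Over all 15 dogs IL1B and CXCL8 were each other's most alike gene among the 69 other named probes (Spearman's rho 0.79). IL1B was next most like SLC6A2, the noradrenaline transporter (0.66), and CCL3, a chemokine of macrophages and T cells (0.53). CXCL8 was next most like the monocyte chemokines CCL8 (0.65) and CCL2 (0.62). IL6 was most like CCL7 (0.68) and CCL2 (0.65), both monocyte chemokines, and FMO1, a drug-metabolising enzyme (0.64). Within the 7 DLE dogs rho of IL6 was 0.71 with CCL2 and 0.43 with CCL7.

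TNF had the closest companions. Over the 15 dogs its level ran with B2M, the light chain of MHC class I (rho 0.91), CCL5, a chemokine for T cells (0.86), and CXCL10, a chemokine induced by interferon (0.83), and within the 7 DLE dogs the values were 0.61, 0.64 and 0.57. PPBP was most like IFNG, the type II interferon (0.63), KRT14, a keratin of basal keratinocytes (0.62), and MS4A1, which encodes CD20 of B cells (0.59), with values of 0.21, 0.64 and 0.04 within the DLE dogs. These coefficients describe 15 dogs that fall into groups, and they have no test.

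**Figure D5:**
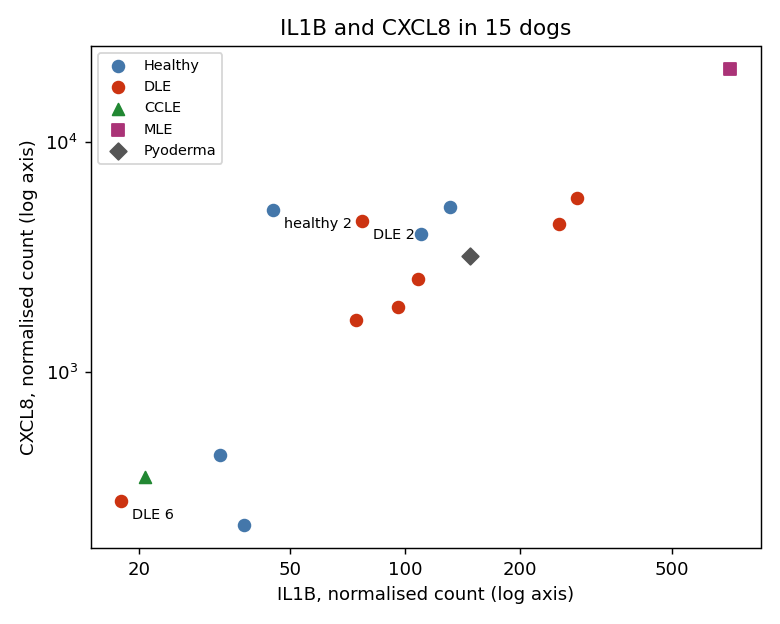
Normalised counts of IL1B (x) and CXCL8 (y) in 15 dogs, both on log axes, with the groups by colour and shape. DLE dog 6 and the CCLE dog lie at the lower left, the MLE dog is highest for both genes (710 and 20698), and healthy dog 2 and DLE dog 2 have a high CXCL8 level for their IL1B level.

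The single dogs of the other diagnoses, which allow no test, differed from each other in which of the 5 genes were high. The MLE dog had the highest IL1B and CXCL8 of all 15 dogs. Its IL1B count of 958 gave 710 normalised counts, 2.51 times the highest DLE and 5.43 times the highest healthy dog. Its CXCL8 count of 27933 gave 20698 normalised counts, 3.65 times the highest DLE and 3.98 times the highest healthy dog. TNF and IL6 lay inside the DLE range in this dog, and PPBP was at background. In all, 3 of the 5 genes lay above the healthy and 2 above the DLE range in the MLE dog, against 43% and 10.1% of 158 probes.

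The CCLE dog showed a nearly opposite picture, with the highest TNF of all dogs and low values of the other cytokines. IL1B (20.8 normalised counts) lay below the healthy range, IL6 (30.3) below both ranges, and CXCL8 (350) near the lower end of both. The raw IL1B count was 22 (exact Poisson 95% interval 13.8 to 33.3), or 1.23 times the background limit. For IL6 the raw count was 32 (21.9 to 45.2), as in DLE dog 6, and its step below the DLE range was less than counting error. In this dog 37.3% of 158 probes lay above the healthy and 21.5% above the DLE range, and of the 5 genes TNF did so for both. PPBP also exceeded the highest healthy dog by less than counting error (raw count 56, exact Poisson 95% interval 42.3 to 72.7).

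The pyoderma dog had IL1B at 148, CXCL8 at 3198 and IL6 at 117.2 normalised counts, all inside the DLE range. IL1B was 1.13 times the highest healthy dog, whereas CXCL8 lay inside the healthy and IL6 below the healthy range. TNF and PPBP lay below all 7 DLE dogs, TNF at 1.47 times the highest healthy dog. Of all probes 42.4% lay above the healthy and 8.86% above the DLE range in this dog, while 3 of the 5 genes lay above the healthy and 0 above the DLE range. Of these 3, PPBP and IL1B exceeded the highest healthy dog by less than counting error. Their raw counts were 48 and 130, with exact Poisson 95% intervals of 35.4 to 63.6 and 108.6 to 154.4. The order of the groups by TNF was thus CCLE, then DLE and MLE together, then pyoderma, then healthy skin. The MLE value lay inside the DLE range, and with single dogs the other steps cannot be set against a spread.

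Of 37 other genes written down for the pathways of TNF and the IL-1 and IL-6 families (receptors, antagonists and signalling proteins), 0 matched a named probe, and those genes were not analysed here. Of 30 gene names written down for neutrophil recruitment 4 matched a named probe. The 30 include CXCL7, another name of PPBP, which was not counted as a match. Of the 4 matched genes 1 was called higher, 1 lower and 2 were not called, with a median log2 change of 1.54 against 0.42 over all probes. SELPLG, the leukocyte ligand of selectins, rose from 144 ± 27.2 normalised counts (SD, n = 5) to 770 ± 311 (n = 7), log2 2.42 ± 0.31 (edgeR adjusted p = 2.37e-05). PTGER4, a receptor for prostaglandin E2, fell from 694 ± 131 to 346 ± 85.8 (log2 -1.004 ± 0.24, edgeR adjusted p = 0.00226). IL17A, the T cell cytokine that induces CXCL8 in keratinocytes, stood at log2 1.43 ± 0.85 (adjusted p = 0.153), and CCL20, a chemokine of inflamed epithelium, at 1.65 ± 0.78 (adjusted p = 0.0789). With the block they were at 0.36 and -0.06, where the sign of CCL20 turned. With the control row set as a block SELPLG was at 2.04 and PTGER4 at -0.27, where the call of PTGER4 ended (edgeR adjusted p = 0.642). In the MLE dog, where CXCL8 was highest, IL17A stood at 60.8 normalised counts, against 2.64 to 12.6 in healthy and 2.85 to 98.0 in DLE dogs. IL17A was low, with means of 8.06 ± 4.38 in healthy (SD, n = 5) and 20.8 ± 34.2 in DLE dogs (n = 7). The background limits of the dogs were 13.6 to 30.0 raw counts. A relation of IL17A to CXCL8 was not tested.

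Markers of cell types that a biopsy can hold were counted beside the 37.7% of all probes called higher and the 24% called lower. Of 11 neutrophil markers 1 matched, CEACAM1, which epithelial and other leukocytes also express, and it was called higher (219.5 to 576.3 normalised counts in healthy, 780.9 to 2347 in DLE dogs), a call that ended with the control row set as a block (log2 0.78, edgeR adjusted p = 0.195). Of 8 macrophage and monocyte markers 3 matched, with CD86 called higher, CD163 lower and CCL2 not called. Their summed level was 2653 to 11759 in healthy and 1853 to 5529 in DLE dogs, and CCL2 was its largest part (means 4304 and 2086). Of 8 T and NK cell markers 5 matched and 5 were called higher, with summed levels of 122 to 229 in healthy and 915 to 5779 in DLE dogs. In DLE dogs CCL5 (mean 3338) made up most of that sum, and KLRD1 came next (mean 172). Of 5 keratinocyte markers 4 matched and 1 was called higher, with sums of 64260 to 131878 in healthy and 87677 to 261687 in DLE dogs, so keratin counts were high in every sample. Mast cell markers (2 of 4 matched, 2 called lower) and the B cell marker MS4A1 (1 of 3, called higher) also differed, and 0 of 3 endothelial markers matched. With the control row set as a block the calls of CD86 (log2 0.86, edgeR adjusted p = 0.0836), IFNG (0.97, adjusted p = 0.159), KRT14 (-0.03, adjusted p = 0.972) and KIT (-0.05, adjusted p = 0.952) ended as well. The part of these cells in the changes of TNF and PPBP was not tested.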

How the data were processed

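Per the labels' protocols, RNA came from archival biopsies through a Qiagen FFPE kit and probe labelling followed the maker's protocol. The authors deposited whole-number counts for each probe and for 14 ERCC rows. Which counting software, background subtraction or scaling was applied is not given in the sources used here. Since column sums differ between dogs, the counts were treated as raw. Accessions were named through the RefSeq table of UU_Cfam_GSD_1.0 (72 of 160 probes). It was used for names alone, since no build is given for the files, and no sequence was available here to print.

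TMM factors were computed over the 160 probes. The reference genes HPRT1 and RPL13A were left out of the tests, filterByExpr kept 154 of 158 probes, and edgeR 4.0.16 (glmQLFit, glmQLFTest) tested 7 DLE against 5 healthy dogs with no covariate. A call is a two-sided p-value under 0.05 after Benjamini-Hochberg adjustment over all probes tested. limma 3.58.1 and DESeq2 1.42.0 served as alternatives. Ratios used a pseudocount of 1 and exact permutation tests. On data simulated for DLE against healthy dogs (20 runs, 40 of 154 probes changed) edgeR recovered 27.3% of 2-fold and 86.2% of 4-fold changes. In those runs 2.59% of its calls were false. In the measured dogs 95 probes were called, and the control row set coincides with the comparison of DLE and healthy skin. The share of false calls in the measured dogs was not tested.

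The genes, the lists (IL-1, IL-6 and TNF pathways, neutrophil recruitment and cell markers) and the tests were chosen with earlier results of these data known. Named besides the 5 genes were, by rule, the 3 named probes of highest Spearman's rho with each over 15 dogs, and from the lists the called genes and the largest changes. The labels name cases and margins, which were taken as separate dogs, and if they are not, the p-values measure technical spread in part. Counts of any 2 dogs of a group differed beyond counting noise (chi-square over degrees of freedom at least 162). No column was thus a copy of another in its group, which does not show that the dogs are separate. Poisson intervals (95%, exact) cover counting error only.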

Additional observations from a re-analysis of the deposited data

Results flagged for a closer look

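The spread within each group was examined on log2 normalised counts for the 5 genes in 7 DLE and 5 healthy dogs, and 2 of the 10 groups held a dog far from the others by Dixon's criterion, where chance gives about 1 in 20. CXCL8 stood at 276.6 normalised counts in DLE dog 6, and the gap to the next dog made up 0.597 of the range of the DLE dogs (critical value 0.568). The same dog had the lowest IL1B (18.0) and IL6 (32.0) of the DLE dogs, while its TNF (199.7) and PPBP (184.7) lay near the DLE medians. Without it the change of CXCL8 was 0.22 in place of 0.01 on the log2 scale, not called in either fit. PPBP stood at 39.7 normalised counts in healthy dog 2, a gap of 0.711 of the range of the healthy dogs (critical value 0.71). That range is narrow, and the raw count of 30 was 1.12 times the background limit.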

How the results depend on the processing

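The call of TNF was kept under every alternative run, from 1.10 (quantile scaling with limma) to 2.59 (reference gene scaling), and with any dog left out, from 1.68 to 1.88. That of PPBP was kept (0.93 to 2.57, and 1.63 to 1.94 with a dog left out) except with the control row set as a block (0.84). IL1B was called under reference gene scaling (1.63) and turned sign with the set as a block (-0.60) and under quantile scaling (-0.017), and ranged from 0.53 to 1.07 with a dog left out. IL6 was called under quantile scaling (-2.50), and ranged from -2.06 to -0.73 with a dog left out. CXCL8 was called under no alternative, turned sign with the panel median (-0.54), DESeq2 (-0.29) and the set as a block (-1.15), and ranged from -0.44 to 0.29 with a dog left out. The cause of these shifts was not tested. The number of probes called was 95, against 40 with the set as a block (38 of them also called without it, in the same direction), 74 to 107 under the other alternatives and 91 to 98 with a dog left out. Called higher were 58 of 95 under TMM, 83 of 100 with reference genes, 57 of 74 with spike-in rows, 44 of 107 with the panel median, 45 of 97 with quantiles and 56 of 107 with DESeq2. Without the set in the model, a fit added after seeing the data, the 9 lupus dogs against the 6 others gave 1.62 for TNF and 1.54 for PPBP, both called.

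The number of called ratios was 3, against 4 with the CCLE and MLE dogs added, 0 with the set as a block and 0 to 4 with a dog left out. With the set as a block the smallest p was 0.0185 (exact permutation), at which 3 pairs alone could not be called. With a dog left out the ratio of TNF over PPBP ranged from -0.11 to 0.26 and that of IL1B over CXCL8 from -0.35 to 0.73. The count of correlated pairs was 0 to 1 with a dog left out and 0 under the other alternatives.

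Same-numbered DLE and healthy dogs share a number only: their deviations correlated over 0.1 in 3 of 5 pairs (-0.14 to 0.18), and 2 of 5 healthy dogs correlated best with their own number. With the replicate block TNF was at 1.78, PPBP at 1.74, IL1B at 1.20, IL6 at -1.78 and CXCL8 at 1.07, with no call changed and 85 probes called. Ratios exchanged within the 5 numbers gave 0 calls, where the smallest p is 0.0625 and no call was possible. Signal over background limits PPBP, TNF and IL1B in healthy dogs. It also limits IL6 in DLE dogs 1, 3 and 6 and in the CCLE dog. Raising low counts to the limit moved no call of the 5 genes. Only IL1B in DLE dog 6 and healthy dog 1 had counts under it, so the values of the other genes could not change.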
